A study of Mus musculus with 19 samples.

Results

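The genes described here are those of the Paneth cell granule in mouse duodenum: the cryptdins Defa20, Defa22, Defa24 and Defa39, the lysozyme Lyz1, the angiogenin Ang4 and the protease Mmp7. Members were all probes whose symbol in the platform annotation, or its current alias (Defcr for Defa), is 1 of these 7 names, which gave 9 of the 46632 probes on the array and 6 of the 7 genes. No probe carries the name Ang4 in that annotation, and Ang4 was not analysed here. Defa20 has 3 probes, Lyz1 has 2, and each of the other 4 genes has 1.

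Paneth cells sit at the base of the small intestinal crypts, beside the stem cells, and release granules of antimicrobial proteins into the crypt lumen. Mouse alpha-defensins, called cryptdins, are made as precursors that lack activity, and the metalloprotease Mmp7 cuts them to the active peptides that disrupt bacterial membranes. Lysozyme cleaves the peptidoglycan of bacterial walls, and Ang4 is a microbicidal ribonuclease. Wnt signalling through TCF4 (encoded by Tcf7l2) drives transcription of the cryptdin genes, which lie side by side in a cluster of near-identical copies.

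All mice were male C57BL/6, and each array held the RNA of 1 mouse. In the Hfe experiment, 2 Hfe-/- mice, with both copies of Hfe disrupted (labelled 10 and 11 weeks old), were compared with 2 wild-type mice (labelled 12 and 13 weeks) on a standard diet with 250 ppm of iron. The 4 labelled ages form a series in steps of 1 week, whereas the study's methods give 1 approximate age for both genotypes, and it is uncertain whether they are true ages. In the diet experiment, 3 mice fed 2% carbonyl iron were compared with 2 mice on a standard diet with 200 ppm of iron, for 6 weeks. These mice were 16 to 18 weeks old and no change of Hfe is given for them. Before deposition 1 further duodenal sample of an Hfe-/- mouse had been dropped by the study as divergent. In bulk samples of duodenum, fewer Paneth cells and less RNA per Paneth cell cannot be told apart.

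Between 13936 and 16965 probes were detected per duodenal array (detection p under 0.05 against the negative control beads). The probe for Hfe, ILMN_2592519, was detected on 0 of 2 Hfe-/- and 0 of 2 wild-type duodenal arrays, and the genotype labels could not be checked with it. Levels are given as log2 signal after quantile normalization of the 9 duodenal arrays. The RNA of 1 array stood apart from the other 8: wild-type replicate 2 had a summed normalized signal of 24200 for 20 pancreatic acinar genes, against 240000 to 386000 on the other arrays. The enterocyte list had 8 or 9 of 11 genes detected on every array and the goblet cell list 11 or 12 of 12. The summed enterocyte signal nevertheless was 12300 to 21400 in the Hfe experiment and 26700 to 34600 in the diet experiment.

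The promoters of Defa20 and Defa22 are shown because Defa20 probe ILMN_1234291 and the Defa22 probe varied most between arrays among the member probes. The brightest Defa20 probe varied less than the Defa39 probe. RefSeq (GRCm38.p6) gave promoters for 5 of the 7 members, and Defa24 and Defa39 were not among them. The last 120 bases before the start site, on the forward strand, lie at chr8:21509138-21509257 for Defa20 and chr8:21162157-21162276 for Defa22. Capitals mark the core recognised by TCF/LEF factors (ATCAAAG) and the TATA box (TATAAA):
Defa20: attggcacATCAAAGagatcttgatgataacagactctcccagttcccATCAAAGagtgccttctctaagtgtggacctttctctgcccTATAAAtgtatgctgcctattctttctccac
Defa22: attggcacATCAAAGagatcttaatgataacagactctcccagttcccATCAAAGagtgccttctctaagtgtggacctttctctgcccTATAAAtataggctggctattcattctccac

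Over the 250 bases before the start site, the promoters differed at 5 positions, all within the printed stretch, and were 98% identical. Each held 2 copies of the TCF/LEF core, starting 112 and 72 bases upstream, and 1 TATA box starting 31 bases upstream. Both strings were searched on either strand over these 250 bases. The core was found at least once in 3.21% of 32851 mouse promoters and at least 2 times in 0.0822%, and the TATA box in 12.4%. Of 16 alpha-defensin promoters in the table, 13 held the core, 9 of them at least 2 times, and 15 held a TATA box. The Lyz1 and Ang4 promoters held neither string. Of the 2 promoters given for Mmp7, 1 held the TATA string 2 times and the other held the core 1 time. These are matches of letters in a window, and binding was not measured.

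Defa20, by its brightest probe ILMN_1230099, was among the strongest signals of the duodenum. Its log2 signal was 12.47 and 13.28 in Hfe-/- mice, 14.77 and 13.87 in the wild type, 15.03, 14.77 and 14.81 on the iron diet, and 14.87 and 14.87 on the control diet. Both Hfe-/- arrays lay below the other 7, and the diet arrays lay between 14.77 and 15.03. On the linear scale the control-diet arrays read 32590 and 32970, where the brightest probe of the same arrays read 33958 and 36197. This probe was thus close to the top of the scale in the diet experiment. Wild-type replicate 1 was close to it too, at 28980 where the brightest probe of that array read 36807. The brightest probe of Hfe-/- replicate 2 read 43432. Whether the signal of the Defa20 probe was compressed was not tested.

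**Figure D1:**
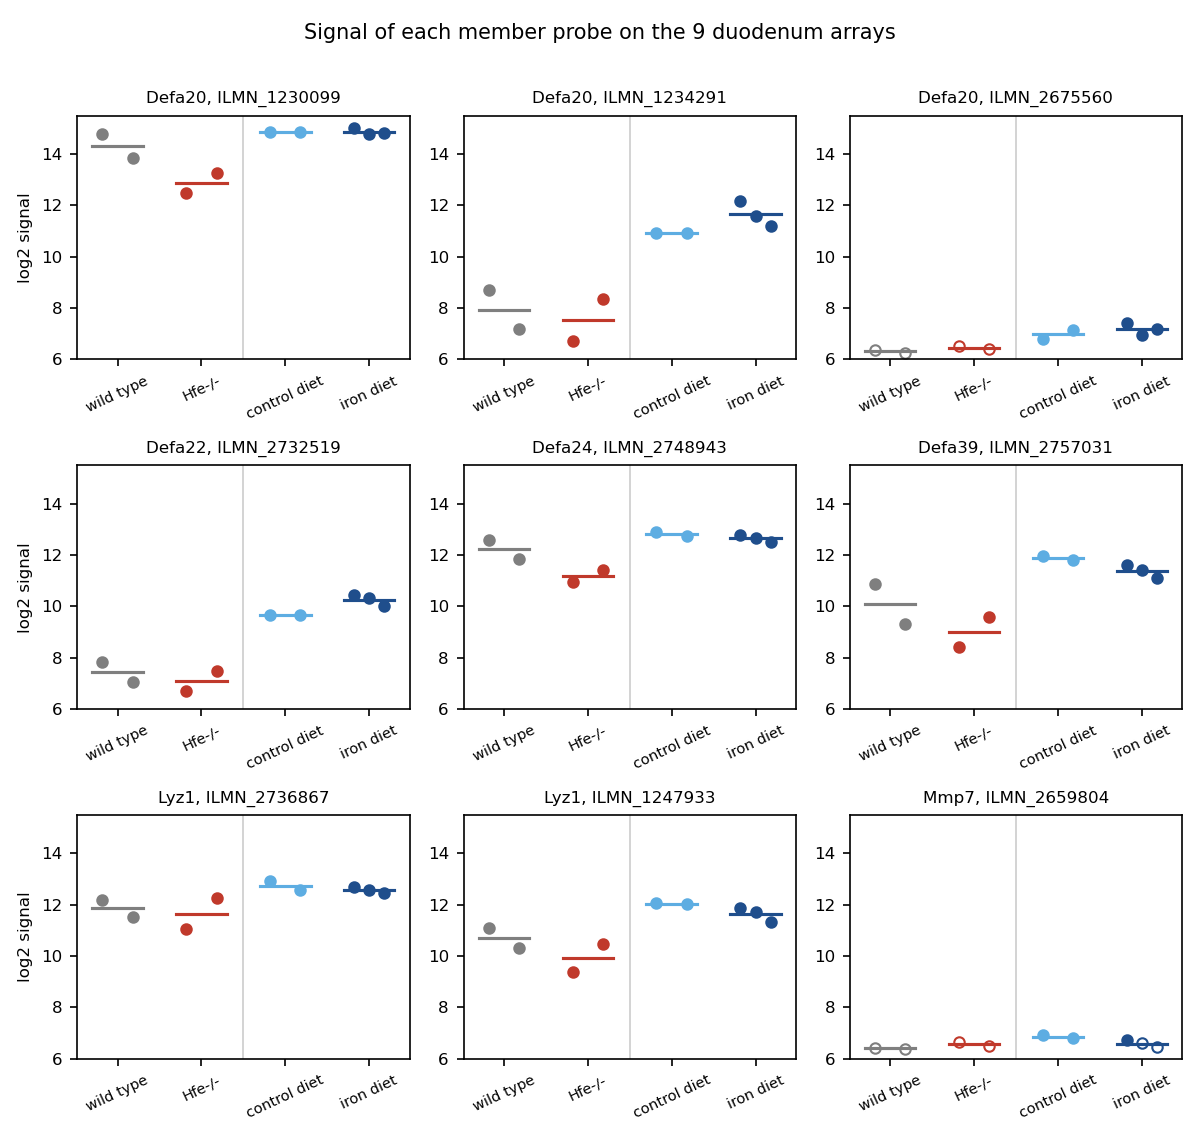
Log2 signal (vertical axis) of each of the 9 member probes in the 4 duodenal groups (horizontal axis); a point is 1 mouse, a bar is the group mean, filled points were detected and open points were not. Every wild-type point lies below every control-diet point in all 9 panels, and the gap is widest for Defa22 and for Defa20 probe ILMN_1234291.

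Defa20 has a further pair of probes. The log2 signal of ILMN_1234291 was 6.71 and 8.36 in Hfe-/- mice, 8.71 and 7.18 in the wild type, 12.19, 11.61 and 11.19 on the iron diet, and 10.91 and 10.91 on the control diet. All arrays of the Hfe experiment lay below all of the diet experiment on this probe, and the iron-fed mice lay above their controls. How far it differs from the brightest probe was not tested. That probe was close to the top of the scale, where a difference may be compressed. The third probe, ILMN_2675560, was detected on 0 of 4 arrays of the Hfe experiment (6.27 to 6.52) and on 5 of 5 of the diet experiment (6.81 to 7.43). Since cryptdin transcripts are nearly identical, each probe may hybridize with several family members, and which of them it reports cannot be settled from the deposited files.

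Defa22 resembled the second Defa20 probe. Its log2 signal was 6.70 and 7.49 in Hfe-/- mice, 7.82 and 7.04 in the wild type, 10.44, 10.32 and 10.02 on the iron diet, and 9.67 and 9.68 on the control diet. The Hfe-/- and wild-type arrays overlapped, whereas all iron-fed mice lay above both control-diet mice.

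Defa24 and Defa39, unlike Defa22, had a lower mean on the iron diet than on the control diet. Defa24 was at 10.96 and 11.43 in Hfe-/- mice, 12.60 and 11.85 in the wild type, 12.77, 12.68 and 12.53 on the iron diet, and 12.89 and 12.76 on the control diet (log2 signal). Defa39 was at 8.40 and 9.57 in Hfe-/- mice, 10.86 and 9.32 in the wild type, 11.62, 11.43 and 11.10 on the iron diet, and 11.96 and 11.80 on the control diet. For Defa24 both Hfe-/- arrays lay below both wild-type arrays, and for Defa39 the groups overlapped.

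Lyz1 encodes the lysozyme form made by Paneth cells. Its brighter probe, ILMN_2736867, was at 11.04 and 12.27 in Hfe-/- mice, 12.17 and 11.54 in the wild type, 12.70, 12.58 and 12.44 on the iron diet, and 12.91 and 12.58 on the control diet (log2 signal). The other probe, ILMN_1247933, was at 9.38 and 10.46, 11.08 and 10.31, 11.88, 11.73 and 11.34, and 12.05 and 12.04 in the same order of groups. The Hfe-/- and wild-type arrays overlapped on both probes, and only the second separated the iron-fed mice from their controls.

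Mmp7, the protease that activates the cryptdin precursors, was near background, with log2 signals between 6.39 and 6.91. It was detected on both control-diet arrays and 1 of 3 iron-diet arrays, and on none of the 4 arrays of the Hfe experiment. In the liver, 0 of the 9 probes were detected on any of the 10 arrays, with unnormalized signals from 52.9 to 104.

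To ask whether loss of Hfe changed the granule genes, Hfe-/- and wild-type duodenum were compared. Mmp7 and the third Defa20 probe were undetected on all 4 arrays and not tested. All 7 tested probes had a lower mean in Hfe-/- mice, but 0 of 7 passed the test, where 1 of 16599 probes passed over the whole array (0.00602%, limma's moderated test with Benjamini-Hochberg adjustment), and an unadjusted p under 0.05 was found for 2 of the 7 and for 1146 of all probes. The median log2 difference of the 7 probes was -0.78, against -0.02 over all probes. In 2 of the 7 both Hfe-/- arrays lay below both wild-type arrays, which held for 20.9% of all tested probes, while 14.3% lay above.

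For the brightest Defa20 probe the mean was 2.71-fold lower in Hfe-/- mice, at 12.88 ± 0.57 against 14.32 ± 0.63 (SD, n = 2 each), with a log2 difference of -1.44 ± 0.38 (SE) and limma's adjusted p = 0.646. Wild-type replicate 1 was close to the top of the scale on this probe, so that this difference may be compressed. Defa24 was 2.04-fold lower, with a log2 difference of -1.03 ± 0.28 (SE) and limma's adjusted p = 0.646. For Defa39 the log2 difference was -1.11 ± 0.59 (SE), and for the Lyz1 probes it was -0.78 ± 0.41 and -0.20 ± 0.43 (limma's adjusted p = 0.804, 0.804 and 0.999). Defa22 and the second Defa20 probe differed by -0.33 ± 0.35 and -0.41 ± 0.68 (SE), less than the spread between mice. Without wild-type replicate 1 or without Hfe-/- replicate 1, the differences of Defa22, the second Defa20 probe and the brighter Lyz1 probe turned positive (0.05 to 0.42), so that 1 mouse decided their sign. Without wild-type replicate 2, the log2 differences of all 7 probes lay between -1.92 and -0.52 and again none passed.

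The study selected genes without p-values, by keeping the most variable 0.6% of probes by SD and then those changed at least 1.4-fold. That selection took 4 member probes as lower in Hfe-/- mice: the brightest Defa20 probe, Defa24, Defa39 and Lyz1 probe ILMN_1247933. Cryptdins and Lyz1 had been listed by the study on these same arrays, so that this count is not independent evidence of a direction.

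Other genes of the Paneth cell, from lists written with earlier results known, also gave no call in this comparison. Of 2 other alpha-defensins tested, Defa3 had a log2 difference of -0.87 ± 0.16 (SE, limma's adjusted p = 0.605) and Defa23 of -0.31 ± 0.30 (limma's adjusted p = 0.935). Of 13 other Paneth cell secreted genes, 6 had a higher and 7 a lower mean, and the median log2 difference was -0.04. That list shares Rnase1 with the pancreatic acinar list, Spink4 with the goblet cell list and Lyz2 with the macrophage list. Its median therefore does not describe Paneth cells alone. Among 14 regulators of Paneth cell fate and function the median was -0.06. Reg3b, a C-type lectin that kills bacteria and that the study also lists as pancreatitis-associated protein, had a log2 difference of 2.86 ± 0.34 (SE, limma's adjusted p = 0.409), opposite in sign to the cryptdins. Which cells gave its signal was not tested. Beside these, all 20 pancreatic acinar genes had a higher mean in Hfe-/- mice (4238 of 9602 over all named genes), with a median log2 difference of 3.18. This rests on wild-type replicate 2: its summed signal for these genes was 24200, whereas wild-type replicate 1, at 263000, lay within the range of the Hfe-/- mice (240000 to 386000). Of 10 gastric and Brunner gland genes, 6 had a higher and 4 a lower mean, with a median of 0.79. No gene of either list passed the test. Their part in the differences of the members was not tested.

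The effect of dietary iron was read from the iron and control diets. The members did not move as 1 group: 3 of 9 probes had a higher and 6 a lower mean in iron-fed mice, and 0 of 9 passed the test, where 69 of 16373 probes passed over the whole array (0.421%). At an unadjusted p under 0.05 there were 5 of the 9 member probes and 1619 of all probes. Defa22 was 1.5-fold higher, at 10.26 ± 0.22 (SD, n = 3) against 9.68 ± 0.01 (SD, n = 2), with a log2 difference of 0.58 ± 0.13 (SE, limma's adjusted p = 0.207). The second Defa20 probe was 1.68-fold higher (log2 difference 0.75 ± 0.26, limma's adjusted p = 0.407). In contrast, Defa39 was 1.41-fold lower (-0.49 ± 0.15, limma's adjusted p = 0.363) and Lyz1 probe ILMN_1247933 was 1.31-fold lower (-0.39 ± 0.15, limma's adjusted p = 0.465).

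The brightest Defa20 probe differed by 0.00 between the diets on the log2 scale, with a 95% confidence interval from -0.24 to 0.24. It was close to the top of the scale, where a difference may be compressed, which was not tested. With the log2 signals scaled to a common median in place of quantile normalization, its difference was -0.23. Defa24 and the brighter Lyz1 probe each differed by -0.17, with intervals from -0.41 to 0.07 and from -0.47 to 0.13. Mmp7 differed by -0.27 ± 0.10 (SE, limma's adjusted p = 0.454). Iron-fed and control mice did not overlap for 2 probes that were higher (15% of all tested probes) and 3 that were lower (12.1% of all). The signs of Defa22, the second Defa20 probe, Defa24, Defa39, both Lyz1 probes and Mmp7 were the same on leaving out any 1 of the 5 mice.

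The same selection took 1 member probe for the diet, the second Defa20 probe as higher. The probe of Defa20 that it took as lower in Hfe-/- mice was ILMN_1230099, a different probe of the same gene. On ILMN_1234291 the Hfe difference was -0.41 ± 0.68 (SE), with a 95% confidence interval from -2.11 to 1.29, which includes the value of the brightest probe. On ILMN_1230099 the diet difference was 0.00 ± 0.10 (SE), but that probe was near the top of the scale and may have shown little of a rise. Whether the probes differ in their response was not tested.

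**Figure D2:**
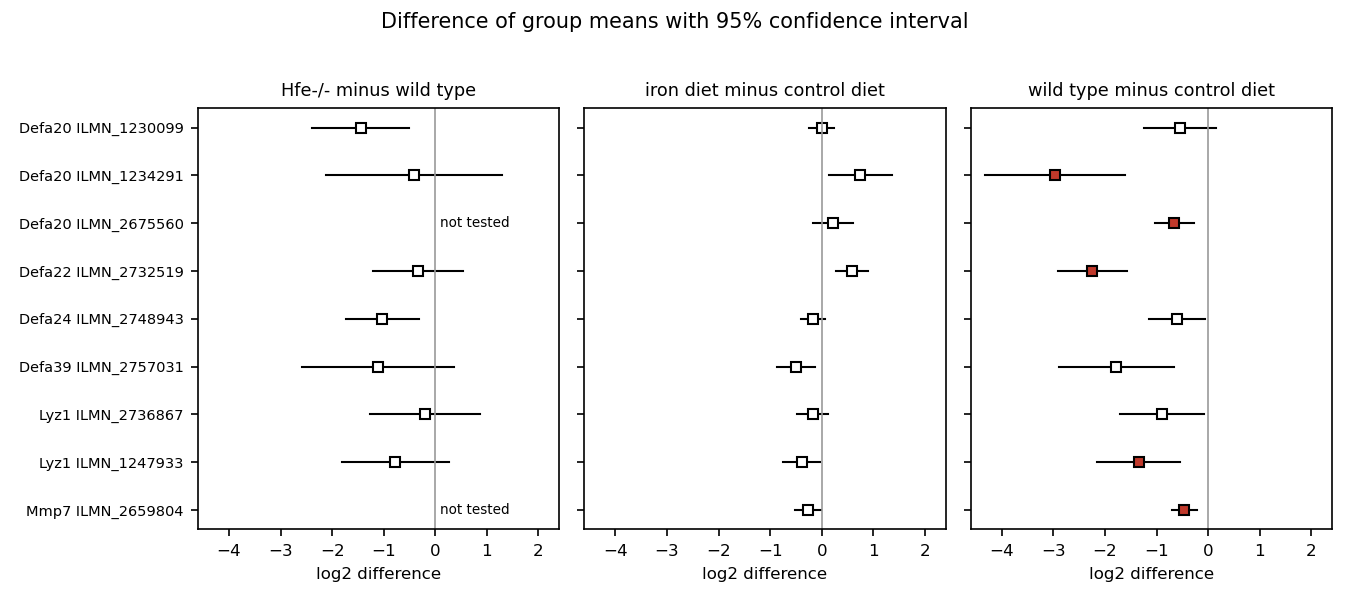
Log2 difference of group means (horizontal axis) with its 95% confidence interval for each member probe (vertical axis) in 3 comparisons; red squares passed limma's test at an adjusted p under 0.05 and open squares did not. Tested probes lie left of 0 for Hfe-/- minus wild type and for wild type minus control diet, while the diet effect runs both ways, with Defa22 at 0.58 and Defa39 at -0.49.

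Of genes outside the members, 1 of 15 antimicrobial genes passed in the diet comparison (6.67%, against 0.473% of all named genes tested). Hamp2, a hepcidin gene, was 1.79-fold lower in iron-fed mice (log2 difference -0.84 ± 0.08, SE, limma's adjusted p = 0.0224). Of that list, 13 of 15 genes had a lower mean, against 4422 of 9508 named genes tested. Both other alpha-defensins had a lower mean, Defa23 by a log2 difference of -0.29 and Defa3 of -0.18. Of 12 other Paneth cell secreted genes, 9 had a lower mean, among them Lyz2, the lysozyme form of macrophages (-0.89 ± 0.29, limma's adjusted p = 0.377). Sox9, a factor that Paneth cells need to form, had a log2 difference of -0.58 ± 0.13 (SE, limma's adjusted p = 0.215).

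Whether the effect of Hfe loss differed from that of iron was tested in 1 fit over the 4 groups. The difference of effects passed for 0 of 9 member probes and for 1 of 18474 probes over the array (0.00541%), with 4 of the 9 and 1688 of all at an unadjusted p under 0.05. It was -1.44 ± 0.42 (SE) for the brightest Defa20 probe (limma's adjusted p = 0.368), -0.92 ± 0.40 for Defa22 (0.544) and -0.86 ± 0.32 for Defa24 (0.469). On that Defa20 probe the diet arrays and wild-type replicate 1 were close to the top of the scale. For the brighter Lyz1 probe it was -0.03 ± 0.48, with an interval from -1.12 to 1.07.

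The granule genes were also compared between the control groups of the experiments. All 9 probes were lower in wild-type mice than in control-diet mice, with no overlap (24.9% of all probes were lower without overlap), and 5 of 9 passed limma's test, where 1775 of 18474 probes passed over the array (9.61%). Defa22 was 4.74-fold lower, at 7.43 ± 0.55 (SD, n = 2) against 9.68 ± 0.01 (SD, n = 2), with limma's adjusted p = 0.00317. The second Defa20 probe was 7.83-fold lower (log2 difference -2.97 ± 0.60, limma's adjusted p = 0.017), and Lyz1 probe ILMN_1247933 was 2.54-fold lower (-1.35 ± 0.36, limma's adjusted p = 0.0489). Mmp7 and the third Defa20 probe also passed, with log2 differences of -0.46 and -0.66 (limma's adjusted p = 0.0315 and 0.0399). Both were undetected on every array of the Hfe experiment and entered the test only through arrays of the diet experiment. Their place among the 5 is therefore not independent evidence of a difference. With the undetected signal set no lower than the lowest detected signal of its array, they were at least 1.11-fold and at least 1.21-fold lower in wild-type mice.

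Defa39 had a log2 difference of -1.79 ± 0.49 (SE, limma's adjusted p = 0.0566). Defa24, the brightest Defa20 probe and the brighter Lyz1 probe differed by -0.60, -0.55 and -0.89, and did not pass. On that Defa20 probe both control-diet arrays and wild-type replicate 1 were close to the top of the scale. Whether this compressed the difference was not tested. With the log2 signals scaled to a common median in place of quantile normalization, 0 of 9 member probes and 12 probes in all passed. The log2 difference of Defa22 was nevertheless -2.28 (limma's adjusted p = 0.0899), and that of the brightest Defa20 probe was -0.95. Defa22 passed on leaving out each of the 9 arrays (limma's adjusted p between 0.00133 and 0.0247), whereas 1 of 9 probes passed without wild-type replicate 2, without control-diet replicate 1 or without control-diet replicate 2.

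Taking all 4 arrays of the Hfe experiment against all 5 of the diet experiment, which was added after the data had been seen, 6 of 9 member probes lay lower on every array (9.62% of all probes did). The means of the experiments differed for 9 of 9 member probes, against 20.9% of all tested probes. These 9 include Mmp7 and the third Defa20 probe, which entered the test only through arrays of the diet experiment. The third Defa20 probe is also among the 6. In this contrast the second Defa20 probe was 11.7-fold lower (limma's adjusted p = 0.00047), Defa22 6.51-fold lower (limma's adjusted p = 6.9e-05) and Defa39 4.27-fold lower (limma's adjusted p = 0.00239) in the Hfe experiment. The means of the experiments also hold the Hfe-/- and the iron-fed mice, so that genotype and iron feeding enter this contrast. Defa39, Defa24, the brightest Defa20 probe and the brighter Lyz1 probe had not passed between the control groups alone. Experiment, labelled age and standard diet cannot be told apart here.

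Genes outside the members also differed between the control groups, and in both directions. Of 15 regulators of Paneth cell fate and function, 5 rose and 1 fell in wild-type relative to control-diet mice (40% called, against 11.9% of all named genes tested). Sox9 was 4.08-fold higher (limma's adjusted p = 0.000781), as were Spdef, a factor of secretory cell maturation, at 5.82-fold (limma's adjusted p = 0.000781), and Ern2, the endoplasmic reticulum stress sensor of secretory epithelium, at 6.96-fold (limma's adjusted p = 0.00061). Fzd5, the Wnt receptor needed for Paneth cell maturation, was 1.75-fold lower (limma's adjusted p = 0.0041). Which cells gave the signals of these regulators was not tested. Among 13 other Paneth cell secreted genes (23.1% called, against the same 11.9%), Habp2 and Kcnn4 rose. Pla2g2a, a phospholipase gene that was detected on 1 of 2 wild-type arrays, fell, by a log2 difference of -0.93 ± 0.17 (SE, limma's adjusted p = 0.0132). Neither Defa3 (-0.28) nor Defa23 (-0.48) passed.

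Of 16 genes listed as antimicrobial outside Paneth granules, 3 rose and 6 fell (56.2% called). Reg3b was 49.5-fold lower in wild-type mice (limma's adjusted p = 0.000473), while Wfdc2 and Ltf were 39.4-fold and 6.19-fold higher (limma's adjusted p = 6.43e-05 and 0.000473). All 9 enterocyte genes tested had a lower mean (median log2 difference -0.89), against 5203 of 10380 named genes tested. Of the 9, 3 fell, or 33.3%, Anpep by a log2 difference of -2.42. Of 8 crypt base stem cell genes, 2 rose (Prom1 and Smoc2), or 25%, again beside 11.9% of all named genes called.

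Markers of stomach and Brunner glands, the mucous glands of the proximal duodenum, moved with the experiment. Of 13 genes on that list, 7 to 10 were detected on each array of the Hfe experiment and 3 to 5 on each of the diet experiment. Their summed normalized signal was 54800 to 135000 in the former and 6390 to 8200 in the latter. Muc6, the mucin of Brunner and pyloric glands, and the stomach gene Gkn1 were detected on 4 of 4 against 0 of 5 arrays, while the acid pump genes Atp4a and Atp4b were detected on none of the 9. In wild-type against control-diet mice, 10 of 10 tested genes of this list had a higher mean, with a median log2 difference of 3.74. Over all named genes tested, 5177 of 10380 had a higher mean. Of the 10 genes, 6 passed (60%, against 11.9% of all named genes tested). The part of these tissues in the differences of the granule genes and of the regulators of Paneth cell fate was not tested.

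**Figure D3:**
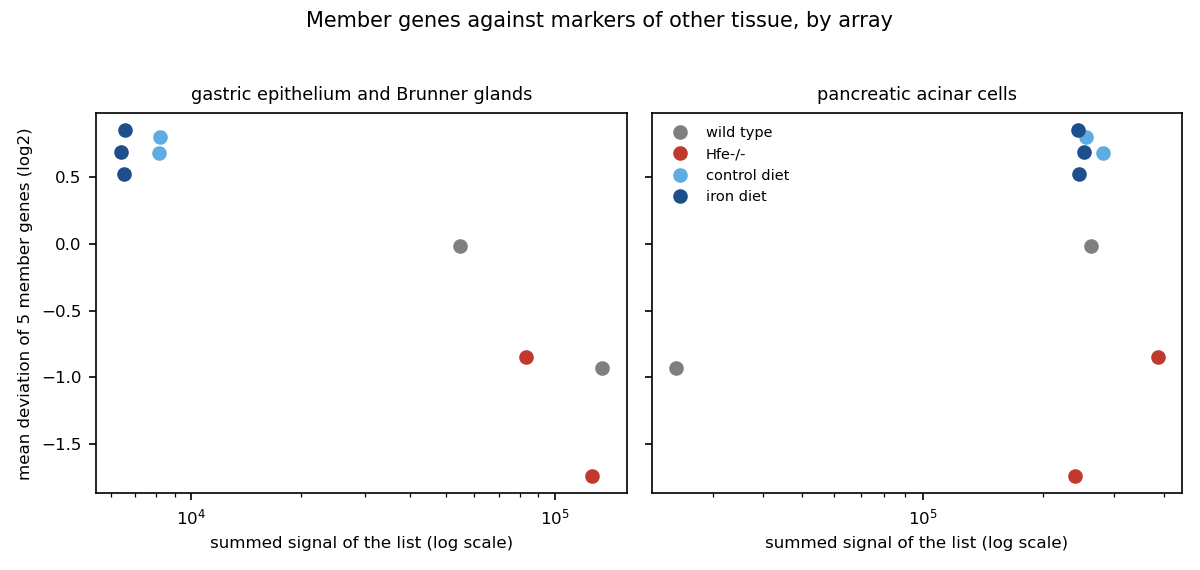
Mean deviation of 5 member genes from their 9-array mean (vertical axis, log2) against the summed normalized signal of gastric and Brunner gland genes (left) and pancreatic acinar genes (right), with the sums on log axes; a point is 1 array, coloured by group. The 4 arrays of the Hfe experiment lie to the lower right in the left panel, and wild-type replicate 2 lies far left in the right panel, at 24200.

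Within the Hfe experiment the granule genes also varied between mice of 1 group. The mean deviation of Defa20, Defa22, Defa24, Defa39 and Lyz1 (brightest probes) from their 9-array means was -0.02 in wild-type replicate 1, where the gastric and Brunner sum was 54800. It was -0.85 in Hfe-/- replicate 2 (83400), -0.93 in wild-type replicate 2 (135000) and -1.74 in Hfe-/- replicate 1 (126000). The 5 arrays of the diet experiment lay between 0.52 and 0.85. The lowest wild-type array thus lay slightly below the higher Hfe-/- array.

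These 5 genes went up and down together from mouse to mouse. All 5 lay above their group mean in wild-type replicate 1, in Hfe-/- replicate 2 and in iron-diet replicate 1, and all 5 below it in wild-type replicate 2, in Hfe-/- replicate 1 and in iron-diet replicate 3. Pairwise correlation coefficients over the 9 arrays were 0.831 to 0.989 (median 0.877) for the 10 pairs of genes, and 0.863 to 0.994 (median 0.956) over the deviations from group means. The arrays share their normalization and fall into 2 experiments, and in groups of 2 mice the deviations are mirror images, so that these coefficients describe the arrays only.

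**Figure D4:**
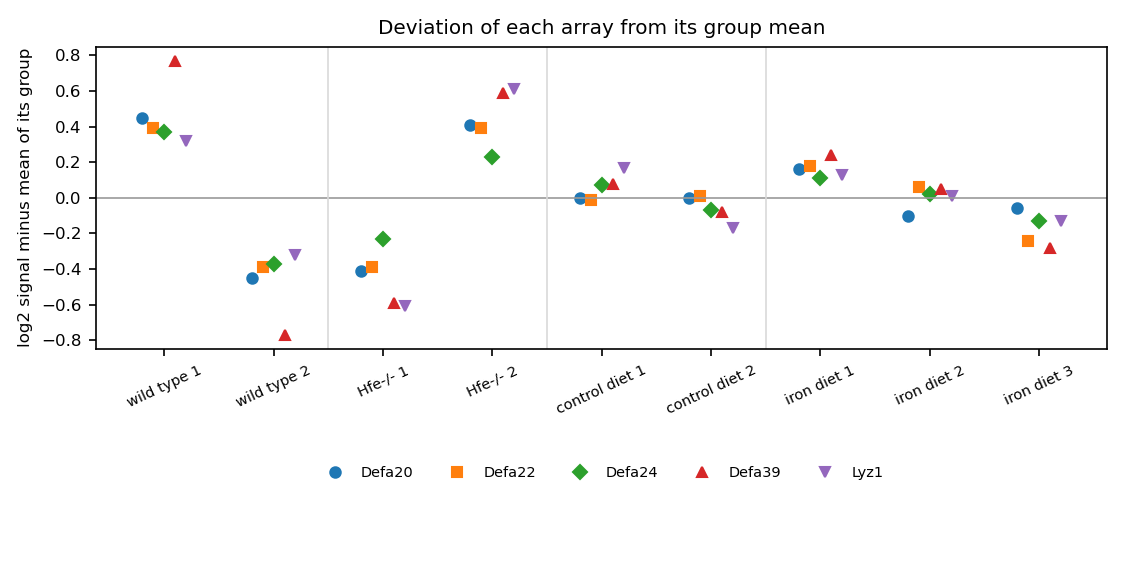
Log2 signal of the brightest probe of 5 member genes minus the mean of its group (vertical axis) on each of the 9 duodenal arrays (horizontal axis). The 5 genes lie on the same side of 0 on 6 of the 9 arrays, and the spread is wider in the Hfe experiment than in the diet experiment.

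By the same measure over the 9 arrays, the non-member genes closest to the mean profile of the 5 members were Ano9 (Pearson r = 0.984), Aamdc (0.981), Amn (0.978), Exoc3l4 (0.978) and Trim31 (0.977). Of 1585 candidate genes, which were detected on all 9 arrays with an SD of at least 0.3, 210 had a coefficient above 0.9 and 280 below -0.9, so that a profile of this kind was common on these arrays.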

How the data were processed

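Total RNA (300 ng) of liver and duodenum was hybridized to Illumina Sentrix Mouse-6 Expression Beadchips. The intensity values deposited by the authors are mean bead signals on a linear scale, neither background-subtracted nor normalized, each with a detection p-value that the authors deposited beside it (the sources used here name no software version). The authors also deposited log2 values, quantile-normalized with Chipster v1.1.1, whose duodenal columns did not follow the signals of the same probes (r from 0.00596 to 0.0111) and were not used. Entries of a duplicated probe were averaged. The platform annotation gives 1 gene symbol for 29976 of 46632 probes, several for 10 and no symbol for 16646.

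Signals of the 9 duodenal arrays were quantile-normalized and brought to log2 with the background left in. A probe entered a comparison if 2 or more of its arrays had a detection p under 0.05, and was fitted with limma 3.58.1 (lmFit, eBayes) in R 4.3.3, with 2 groups for the Hfe and diet effects, as the study's empirical Bayes test does, and 4 groups for the other comparisons. Benjamini-Hochberg adjustment ran over all probes, with a threshold of 0.05. The fit was also run on simulated data with independent noise for each probe and array. Such data lack the correlation between probes seen here, so that the run does not show how the fit behaves on these arrays. Differences are of log2 signals, and without background subtraction those of dim probes are understated. The number of arrays limits the precision. Files were read with the data.table package (version 1.17.8), and figures were drawn with matplotlib 3.10.9.

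Beside the 7 members, 16 gene lists were used (Paneth cell and antimicrobial genes, and markers of other cell types). A gene could stand on several lists, as Rnase1, Spink4 and Lyz2 did. Members and lists were chosen with earlier results of these data known. From each Paneth cell or antimicrobial list up to 4 genes that passed were eligible to be named per comparison, filled to 3 by unadjusted p, and from each cell type list up to 2. Genes named for their detection only (Gkn1, Atp4a, Atp4b) were chosen after their values were seen. Likeness was the Pearson correlation with the mean profile of members detected on all 9 arrays. Alternatives were other scaling, background correction, filters, moderation, blocks, call rules and leaving out each mouse.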

Additional observations from a re-analysis of the deposited data

How the results depend on the processing

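Group sizes of 2 or 3 mice set the limit, and near-identical cryptdin transcripts, probes close to background (Mmp7, the third Defa20 probe) and a probe close to the top of the scale (the brightest Defa20 probe) limit single values. The authors' normalized values were not run because the duodenal columns do not follow their probes, and a slide block was not run because the headers name no slide. In the Hfe effect, the probes that passed over the array numbered 1 in the reported fit, 0 with median scaling, with detection on every array or with a replicate block, 0 to 35 without 1 mouse and 236 by the study's selection on SD and change. Member probes that passed numbered 0 in each of these tests, and the study's rule took 4. Against all 4 control arrays, an alternative added after seeing the data, 821 probes and 5 member probes passed. Same-numbered arrays of the Hfe experiment deviated in opposite directions (r = -0.452), and with the crossed replicate block, also added after seeing the data, 61 probes and 3 member probes passed. In the diet effect 69 probes passed, against 0 with median scaling, 45 with normexp background correction, 109 without a detection filter, 44 in 1 fit with 4 group means, 105 with trend and robust moderation, 41 with a replicate block, 214 by the study's rule and 0 to 130 without 1 mouse. Member probes numbered 0 in all of these but the study's rule, which took 1. Same-numbered arrays of the diet experiment had correlations of 0.146 and -0.192. The labels do not state that the numbers pair mice, and so few arrays cannot settle it. For the difference of effects the count was 1, and 0 with median scaling, detection on every array or a replicate block, 9 with trend and robust moderation and 0 to 31 without 1 mouse, with 0 member probes in each. No paired analysis was possible for wild type against control diet because their numbers belong to separate experiments. That comparison had 1775 probes and 5 member probes, against 12 and 0 with median scaling, 1744 and 3 with trend and robust moderation, 276 and 3 by the study's rule (added after seeing the data), 3862 and 9 for all arrays of each experiment, and 725 to 1863 and 1 to 7 without 1 mouse. The cause of these changes was not tested. Scaling moved the median of all probes by less than 0.1 in each comparison.

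Signs changed only for differences that had not passed. With median scaling the brighter Lyz1 probe was at 0.04 in the Hfe effect and 0.12 in the difference of effects. Without 1 mouse, values of the Hfe effect ranged from -0.75 to 0.06 for Defa22, from -1.27 to 0.40 for the second Defa20 probe and from -0.82 to 0.42 for the brighter Lyz1 probe. The brightest Defa20 probe in the diet effect was at 0.03 with a replicate block and ranged from -0.09 to 0.05 without 1 mouse. In the difference of effects, values without 1 mouse ranged from -1.39 to 0.15 for Defa39, from -0.93 to 0.16 and from -0.65 to 0.59 for the Lyz1 probes, and from -0.25 to 0.10 for the third Defa20 probe. The median correlation between members was 0.877, against 0.941 with median scaling and 0.845 to 0.943 without 1 mouse.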
